A study of Mus musculus with 9 samples.

Results

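The control cells of a knockdown series in mouse embryonic stem (ES) cells are described here, gene by gene and family by family. They are the 3 libraries titled T2SC, chosen by title alone from the 9 libraries of the series, which form 3 groups of 3. The titles of the other 6 name Fam60a or Sin3a, the targets of the knockdowns, so T2SC was taken as the control by elimination, and no knockdown library entered any value.

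The cells were of the E14 line, grown on gelatin in GMEM with 10% serum and 1000 U/ml of leukaemia inhibitory factor (LIF), the cytokine that holds mouse ES cells undifferentiated in serum. They had been transduced for 24 hours with a pLKO.1 lentivirus carrying a scrambled hairpin, in 10 ug/ml polybrene. After 12 hours of recovery they were selected for several days in 2 ug/ml puromycin, and they were passaged 3 times before harvest. The knockdown cells went through the same transduction and selection, so these controls are a baseline for vector-carrying, drug-selected cells and not for unmanipulated ES cells. The labels describe 3 biological replicates, and do not say whether each was a pool or a clone.

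Mouse ES cells derive from the inner cell mass of the blastocyst. Their identity rests on a network of transcription factors centred on Pou5f1 (Oct4), Sox2 and Nanog, reinforced in the naive state by Esrrb, Klf4, Klf2 and Tfcp2l1. LIF feeds this network through STAT3, while the FGF4 that the cells secrete drives ERK signalling and readies them for differentiation. Serum cultures are mixed: single cells drift between a naive state, a state primed for the epiblast and a state that resembles primitive endoderm, the extraembryonic layer of the blastocyst.

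The libraries held 6072157, 6896141 and 6631622 counted reads in replicates 1, 2 and 3. Levels are given as CPM, counts brought to a common library total with TMM scaling, and for comparisons between genes as RPKM, the CPM divided by the kilobases of merged exon. A gene counted as detected at 1 CPM or more in each of the 3 libraries. A floor of 3 reads equals 0.494, 0.435 and 0.452 CPM in the 3 libraries, and 0.153 CPM over all 3 pooled. These floors cover counting error only. Duplicate reads had been removed before counting, which sets a ceiling on reads per base: the densest gene held 0.850 to 0.890 reads per exon base. The libraries correlated across 14185 detected genes of all types with Pearson's r of 0.988 between replicates 1 and 2, against 0.979 and 0.978 for the pairs with replicate 3. Genes are not independent replicates, so these values are descriptions. Replicate 3 stood apart in many primitive endoderm genes and in some members of other lists, trophectoderm and antigen presentation among them, whose values are given last and bear on every mean that includes them.

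Of 20229 protein-coding genes listed, 13167 (65.1%) were detected and 3576 had no read in any library. Protein-coding genes took 98.6% ± 0.103 of the reads (SD, n = 3). The counted reads were spread over many genes. The 100 genes with most reads together held 4.55%, 4.93% and 4.73% of the reads. To reach 50%, 2435, 2440 and 2471 genes were needed. Removal of duplicates sets a ceiling for the most abundant genes. With reads corrected for occupied start positions the top 100 held 5.06%, 5.55% and 5.34%. The part of genes with shared sequence in this spread was not tested. The median detected protein-coding gene stood at 11.95 RPKM, the 10th percentile was 1.31 RPKM and the 90th 38.7 RPKM. Over all protein-coding genes, undetected ones included, the median was 3.74 RPKM, which serves as the background for the groups below.

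**Figure D1:**
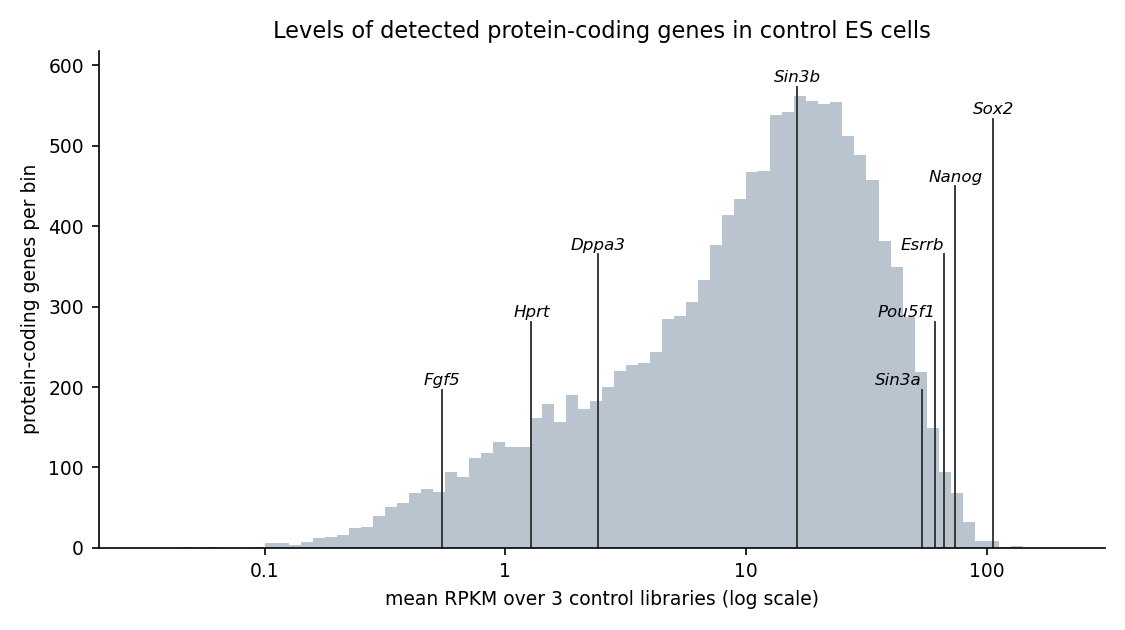
Histogram of mean RPKM (log scale) of the 13167 detected protein-coding genes, with vertical lines at 9 named genes. Sox2, Nanog, Esrrb, Pou5f1 and Sin3a lie in the upper tail, Sin3b near the peak, and Dppa3, Hprt and Fgf5 in the lower tail.

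Reads followed gene length as well as level. The most reads belonged to Hspg2, the basement membrane proteoglycan perlecan, with 3453, 6936 and 5906 reads. Huwe1, a very long ubiquitin ligase gene, had 4101, 5617 and 4727 reads, and Tet1, a 5-methylcytosine dioxygenase, had 3860, 5337 and 3925. All 3 had the fewest reads in replicate 1, the smallest library. In scaled CPM replicate 1 was still lowest for Hspg2 (566, 1010 and 891) and Huwe1 (672, 818 and 713). Tet1 was lowest in replicate 3 on that scale (632, 777 and 592). Per length the order was different. At the top stood mitochondrially encoded mt-Nd1 at 133 ± 5.14 RPKM and mt-Cytb at 128 ± 5.18 RPKM (SD, n = 3), components of the respiratory chain. The highest nuclear genes were Eef2, the translation elongation factor, at 116 ± 5.41 RPKM, the chaperone Hsp90ab1 at 110.3 ± 5.59 RPKM, the small GTPase Arf6 at 109 ± 5.93 RPKM and Sox2. All of these levels are held down by the ceiling on reads per base, mt-Nd1 and mt-Cytb most, at 0.869 and 0.834 reads per base. With reads corrected for occupied start positions mt-Nd1 and mt-Cytb stood at 281.5 and 249.9 RPKM. Eef2 and Hsp90ab1 then stood at 196.4 and 175.3 RPKM.

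The 3 markers of ES cells were all among the abundant transcripts. Sox2, the HMG-box partner of Oct4, stood at 115, 103 and 102 RPKM in replicates 1 to 3, a mean of 106 ± 7.38 (SD, n = 3). Esrrb, an orphan nuclear receptor of the naive state, stood at 71.7, 63.9 and 63.3 RPKM, a mean of 66.3 ± 4.69. Pou5f1, which encodes Oct4, stood at 63.0, 60.1 and 60.0 RPKM, a mean of 61.0 ± 1.73. Replicate 1 was the highest for each, and Sox2 lay above both others in every library. Each library thus held the defining markers of ES cells. On merged exon length, the ceiling on reads per base touches Sox2 most of the 3. With reads corrected for occupied start positions its level was 163 RPKM, against 78.1 for Esrrb and 70.1 for Pou5f1. These gaps depend on the length used. With the longest transcript as length and no correction, Sox2 stood at 106, Pou5f1 at 100.7 and Esrrb at 93.2 RPKM.

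The start regions of these 3 genes are shown because they are the genes by which the cells were checked. Each runs from 120 bases before to 20 bases after the start that RefSeq gives on GRCm38.p6. Capitals mark a match to CCAAT or GGGCGG on either strand, out of a search for 6 motifs that also took the TATA box TATAAA, the E-box CACGTG, the ETS letters CGGAAG and the NRF1 letters TGCGCA. The Pou5f1 region is chr17:35505912-35506051, the Sox2 region chr3:34649875-34650014 and the Esrrb region chr12:86360997-86361136, all on the plus strand.

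Pou5f1: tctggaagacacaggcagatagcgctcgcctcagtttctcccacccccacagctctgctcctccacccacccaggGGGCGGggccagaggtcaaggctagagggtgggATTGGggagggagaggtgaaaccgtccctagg

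Sox2: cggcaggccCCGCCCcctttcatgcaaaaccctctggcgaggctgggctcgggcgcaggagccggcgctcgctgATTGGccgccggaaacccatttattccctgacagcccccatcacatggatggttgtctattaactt

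Esrrb: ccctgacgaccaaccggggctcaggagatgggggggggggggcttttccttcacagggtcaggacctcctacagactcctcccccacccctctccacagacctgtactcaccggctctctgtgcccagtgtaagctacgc

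Pou5f1 and Sox2 each held 1 match to CCAAT and 1 to GGGCGG, and Esrrb held none of the 6 motifs. Among 15876 windows of the same length at protein-coding starts, 25.7% held CCAAT and 41.7% held GGGCGG, so both are common. In the full window of 300 bases the Sox2 start had a ratio of observed to expected CpG of 0.819, against 0.374 at Pou5f1 and 0.266 at Esrrb. The Sox2 start used lies 410 bases from the gene's start in GENCODE. Windows were found for 78.5% of protein-coding genes, under the 80% set for a comparison of composition between levels, so that comparison is void and is not given. A match to letters is a description of the sequence, not a binding site.

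All 21 core pluripotency factors were detected, with a median of 55.6 RPKM. Utf1, a chromatin factor of undifferentiated cells, stood at 107, 96.0 and 105 RPKM, and L1td1, an RNA-binding protein derived from a retrotransposon, at 106, 89.2 and 94.5 RPKM. Their ranges over the libraries overlapped each other and that of Sox2. Within each library L1td1 lay below both Utf1 and Sox2, while Utf1 lay above Sox2 in replicate 3 only. Nanog, the homeobox factor, stood at 79.6, 70.5 and 72.2 RPKM. The zinc finger factors Sall1 and Sall4 followed at 57.9 ± 4.69 and 55.6 ± 3.03 RPKM (SD, n = 3). Lin28a, which blocks maturation of the let-7 microRNA, stood at 56.3 ± 5.21 RPKM, while its paralogue Lin28b was the lowest of the list at 6.41 ± 0.931 RPKM.

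Of 22 naive factors 21 were detected, with a median of 47.0 RPKM. Spp1, which encodes the secreted protein osteopontin, was the highest at 83.5 ± 4.56 RPKM (SD, n = 3). Klf2 stood at 78.5 ± 6.04 and Klf4 at 63.3 ± 4.81 RPKM, both zinc finger factors of the reprogramming family. Nr0b1 (Dax1), an orphan receptor, stood at 76.8 ± 5.59 RPKM and Tfcp2l1, a LIF target, at 55.5 ± 4.39. Zfp42 (Rex1), the classical reporter of the naive state, had 58.0, 54.3 and 55.8 RPKM. The exception was Dppa3 (Stella), with only 5, 13 and 25 reads, or 0.918, 2.12 and 4.23 RPKM, lowest in replicate 1 and highest in replicate 3. Its sequence was 83.5% unique. Among the detected naive factors 18 of 21 were highest in replicate 1, against 35.96% of all detected protein-coding genes. High shares were also seen in other lists, with 6 of 6 MCM2-7, 7 of 8 CCT and 22 of 30 DNA replication genes. Low shares were 0 of 9 snoRNA host genes and 0 of 19 primitive endoderm markers. The libraries also differed with gene length over all genes. For genes under 1500 exon bases the median log2 deviation was 0.048 in replicate 1 and -0.080 in replicate 2. For genes over 10000 bases it was -0.033 and 0.075. The part of length in these shares, or in other differences between libraries, was not tested.

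The genes of the primed state were lower, with 14 of 17 detected and a median of 6.83 RPKM. Dnmt3b, a de novo DNA methyltransferase that is raised on exit from the naive state, was the exception at 43.0, 43.5 and 58.8 RPKM, highest in replicate 3. Otx2, a homeobox factor of the formative epiblast, stood at 8.35, 7.42 and 7.90 RPKM. Fgf5, the classical epiblast marker, had 6, 9 and 12 reads, or 0.393, 0.524 and 0.724 RPKM. Pou3f1 (Oct6) had 0 reads, which allows up to 0.153 CPM over the 3 libraries. In bulk RNA a low level in all cells and a high level in few cells cannot be told apart, and neither can fewer cells of a type and less RNA per cell.

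**Figure D2:**
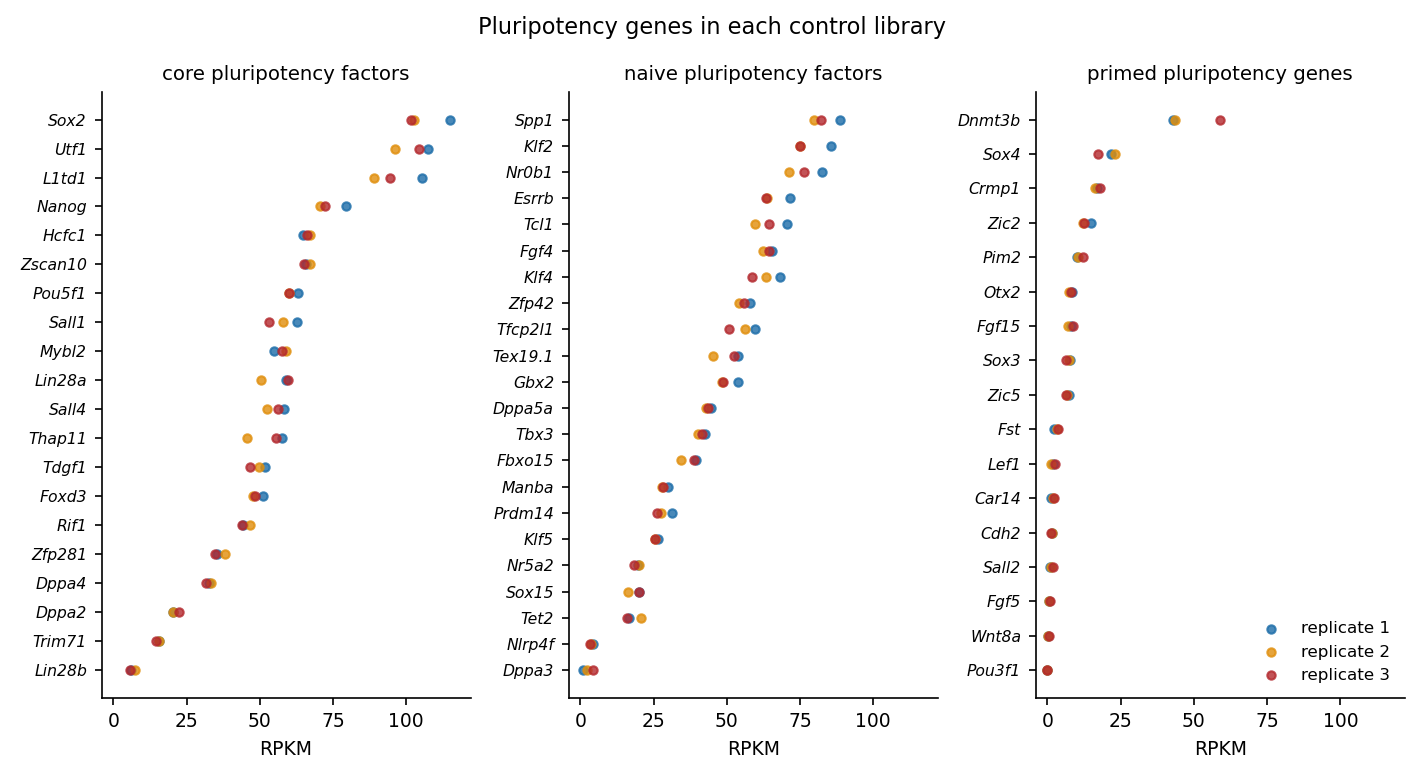
RPKM (linear axis) of core, naive and primed genes in replicates 1, 2 and 3 (points), ordered by mean. Core and naive genes span about 1 to 115 RPKM with replicate 1 often rightmost, while primed genes other than Dnmt3b stay below 24 RPKM.

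Transcripts of the pathways that maintain these factors were present from receptor to target. For LIF, both receptor chains were detected: Lifr at 19.13, 23.8 and 20.9 RPKM and Il6st (gp130) at 15.6, 18.7 and 15.8 RPKM, each highest in replicate 2. The kinase Jak1 stood at 22.1 ± 0.919 RPKM (SD, n = 3), against 6.10 ± 0.658 for Jak2. Stat3, the transcription factor they activate, stood at 24.4, 23.4 and 23.8 RPKM. Of the genes known as STAT3 targets, the kinase Pim3 stood at 88.3 ± 4.26 RPKM and the feedback inhibitor Socs3 at 64.9 ± 2.59 RPKM, above Stat3 itself, while the related inhibitor Cish stood at 2.74 ± 0.378 RPKM. Lif itself was low at 3.09 ± 0.621 RPKM.

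In FGF and ERK signalling all 27 genes were detected, with a median of 32.6 RPKM. The ligand Fgf4 stood at 65.5, 62.5 and 64.5 RPKM, close to Oct4 in level. Its main receptor in these cells, Fgfr1, stood at 15.1 ± 1.34 RPKM (SD, n = 3). Fgfr2, the receptor of primitive endoderm and trophoblast, was uneven at 2.89, 3.50 and 8.90 RPKM, highest in replicate 3. The kinase Mapk3 (ERK1) stood at 59.1 ± 3.56 RPKM. Outputs and inhibitors of the pathway were abundant, with the ETS factor Etv4 at 62.9 ± 2.42, Spry2 at 62.5 ± 2.60 and Spry4 at 58.5 ± 2.36 RPKM. Eras, a constitutively active Ras of ES cells, stood at 51.1 ± 5.93 RPKM. The ligand family as a whole was sparse, with 10 of 22 members detected and a median of 0.616 RPKM.

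Of 30 Wnt pathway genes 29 were detected. Their ligands were sparse: 7 of 19 Wnt genes were detected, with a median of 0.349 RPKM. Ctnnb1 (beta-catenin), shared by Wnt signalling and cell junctions, stood at 74.3 ± 2.94 RPKM (SD, n = 3). Gsk3a and Gsk3b, the kinases that mark it for destruction, stood at 43.6 ± 2.05 and 12.2 ± 0.705 RPKM. Tcf7l1, the repressor among the TCF factors, stood at 35.9 ± 1.61 RPKM, above Lef1 at 1.96 ± 0.631. In the Nodal and BMP group 25 of 26 genes were detected. The ligands Nodal (48.1 ± 4.70 RPKM) and Bmp4 (46.6 ± 2.69 RPKM) exceeded the receptors, such as Acvr1b at 23.3 ± 1.65 and Bmpr1a at 22.7 ± 1.53 RPKM. Id1, a BMP and SMAD target that blocks neural commitment, stood at 52.4 ± 5.46 RPKM.

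Marker lists of differentiated cells had medians below the 3.74 RPKM of all protein-coding genes, while the share of members detected lay on both sides of the 65.1% of all genes. No hepatocyte marker of 9 was detected, 4 of 11 muscle markers, 5 of 12 blood cell markers and 7 of 16 neuroectoderm markers, with list medians of 0.116, 0.297, 0.192 and 0.507 RPKM. Endothelial markers had 8 of 9 detected and neuron markers 7 of 10, with medians of 2.83 and 2.402 RPKM. Among the highest members were Des (desmin), an intermediate filament of muscle, at 10.9 ± 0.545 RPKM, Spi1, a blood cell transcription factor, at 3.08 ± 0.480 RPKM, and Stmn2, a neuronal microtubule regulator, at 29.8 ± 2.53 RPKM (SD, n = 3). Alb, Myf5, Ptprc, Pax3, Neurog2 and Emcn, of the liver, muscle, blood, neuroectoderm and endothelial lists, had 0 reads. T (Brachyury), the primitive streak factor, had 5, 16 and 7 reads. Mesendoderm had 9 of 16 detected with a median of 1.017 RPKM, led by Snai1, a repressor of E-cadherin, at 10.8, 13.03 and 27.7 RPKM. Its highest value was in replicate 3.

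Some members stood well above the rest of their list. Tubb3, a tubulin used as a neuronal marker, stood at 48.5 ± 5.65 RPKM (SD, n = 3), while Pax6 stood at 1.36 ± 0.105. Vim (vimentin) stood at 31.7 ± 0.888 RPKM in a fibroblast list whose collagens Col1a1, Col1a2 and Col3a1 stood at 2.201 ± 1.94, 0.416 ± 0.461 and 0.265 ± 0.337 RPKM. The summed level of the 14 fibroblast markers was 303, 358 and 313 CPM in replicates 1 to 3. Pecam1, an adhesion protein of endothelium and of ES cells, stood at 23.3 ± 3.27 RPKM. Trophectoderm had 14 of 18 detected, led by Plet1, a surface protein, at 23.9 ± 2.05 RPKM, the keratin Krt18 at 22.9 ± 11.8 and the transcription factor Tead4 at 22.7 ± 2.53. Of its lineage factors Cdx2 had 4, 3 and 31 reads, and Eomes, Gata3 and Elf5 stood at 3.84, 1.48 and 0.0342 RPKM. Primitive endoderm was different, with 19 of 21 detected and a median of 18.2 RPKM. That median was uneven over the libraries, at 8.81, 9.21 and 37.0 RPKM in replicates 1 to 3. The lists other than primitive endoderm that describe differentiated tissue had medians of 2.83 RPKM or less.

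**Figure D3:**
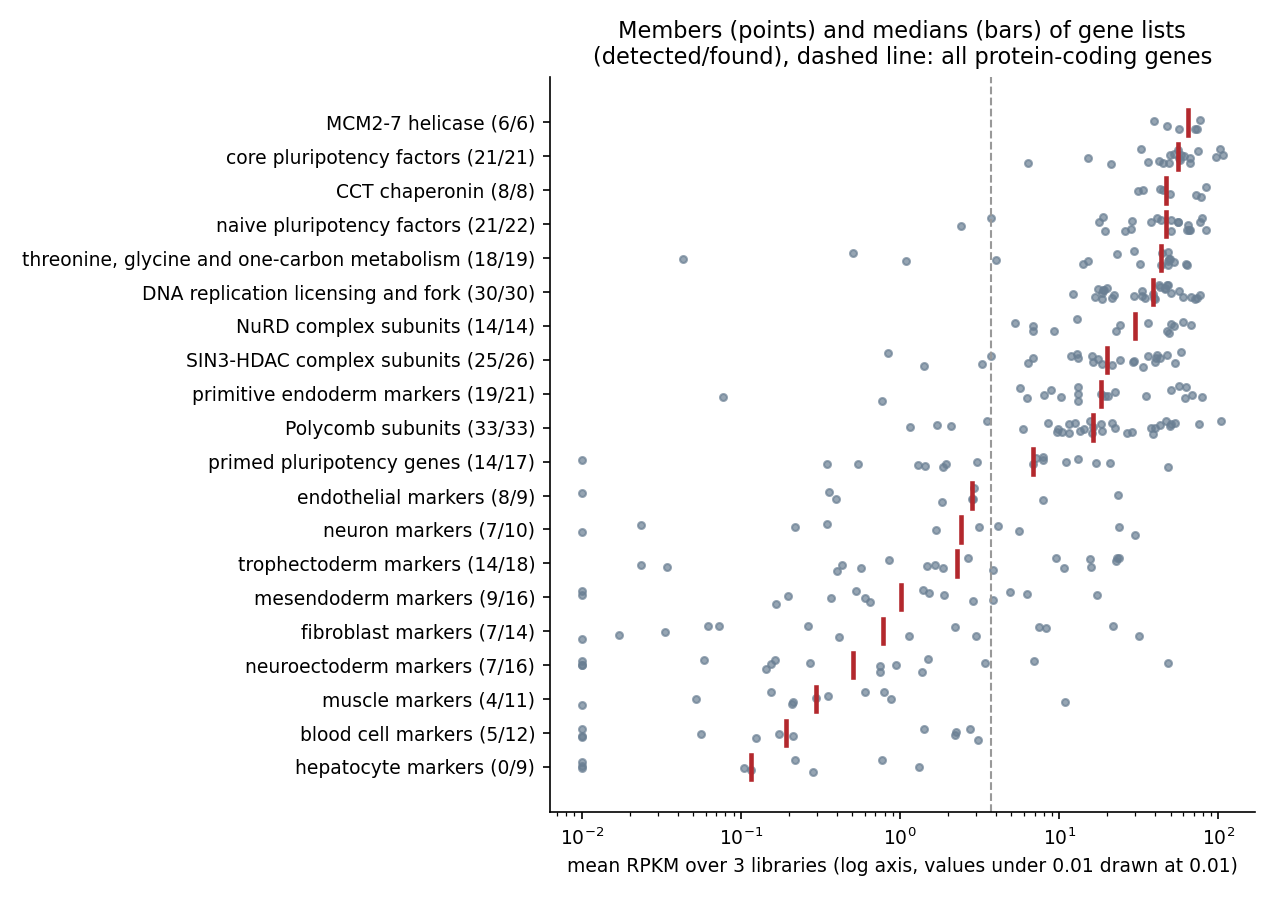
Mean RPKM (log axis) of each member (points) and the list median (red bars) for 20 gene lists, with detected and found members in brackets. The MCM helicase (64.0 RPKM) and the core factors (55.6 RPKM) have the highest medians drawn, and the hepatocyte list (0.116 RPKM) the lowest; the dashed line is the median of all protein-coding genes.

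Members of the transcription factor families were ranked per length. Sox2 stood at 106 RPKM and the next of 18 Sox genes, Sox12, at 25.7 ± 0.859 (SD, n = 3). Pou5f1 led 14 POU genes, followed by Pou2f1 (Oct1) at 12.7 ± 2.95 RPKM. The Klf family was broader, with 15 of 17 detected and Klf16 and Klf9 at 45.4 ± 4.09 and 40.02 ± 0.845 RPKM behind Klf2 and Klf4. Tbx3 led the T-box genes at 41.4 ± 1.18 RPKM. Foxh1, the partner of the Nodal SMADs, and Foxd3, a pluripotency factor, led the 43 forkhead genes at 52.7 ± 5.38 and 49.1 ± 1.76 RPKM.

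The developmental homeobox clusters were close to silent. Of 38 Hox genes 11 were detected, with a median of 0.204 RPKM and a highest value of 5.30 ± 0.940 RPKM at Hoxc13 (SD, n = 3). Of 9 Pax genes 3 were detected. Sensory receptors set the low end of the genome: 2 of 879 olfactory receptors and 1 of 193 vomeronasal receptors were detected. Zinc finger genes named Zfp were the reverse, with 345 of 372 detected at a modest median of 6.81 RPKM. The highest of them was Zfp57, the guardian of imprinted methylation, at 69.9 ± 7.07 RPKM.

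The chromatin machinery was broadly expressed, and paralogues within a complex differed in level. SIN3-HDAC, the corepressor complex that the series perturbs elsewhere, had 25 of 26 subunits detected with a median of 20.1 RPKM. The scaffold Sin3a stood at 58.1, 52.6 and 50.5 RPKM and its paralogue Sin3b at 15.6, 16.4 and 16.9 RPKM. The ratio was 3.303 ± 0.377 (SD, n = 3), and 1.91 when the longest transcript is used as the length. Sap30, a small subunit, was the highest of the list at 61.9, 56.0 and 56.6 RPKM. Sinhcaf, the gene once named Fam60a, was near the bottom at 3.25, 3.41 and 3.21 RPKM, and was 75.5% unique. The deacetylase Hdac2 stood at 38.0, 34.7 and 35.4 RPKM and Hdac1 at 6.61, 7.19 and 6.75 RPKM. Hdac1 shares most of its sequence with other gene entries, with 41.3% unique stretches against 100.0% in Hdac2, and the part of this in the ratio of Hdac1 to Hdac2, 0.191 ± 0.0167, was not tested. Arid4a stood above Arid4b by a factor of 2.52 ± 0.179, which became 0.979 with the longest transcript as length.

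Of the NuRD remodelling complex all 14 subunits were detected, with a median of 30.0 RPKM. Mbd3, needed for lineage commitment, stood at 67.5 ± 4.53 RPKM and exceeded Mbd2 at 12.9 ± 0.839 (SD, n = 3). The ATPase Chd4 stood at 60.0 ± 0.799 RPKM and its paralogue Chd3 at 6.84 ± 1.098. In the CoREST group Rcor2 stood at 66.6 ± 1.89 RPKM, Rcor1 at 21.7 ± 1.71 and Rcor3 at 1.56 ± 0.131. All 33 Polycomb genes were detected. Epop, a PRC2 cofactor that links it to elongin, was highest at 109.6, 95.2 and 109 RPKM, followed by Phc1 at 75.1 ± 2.62. The PRC2 core Suz12, Eed and Ezh2 stood at 50.1 ± 2.04, 42.8 ± 2.53 and 28.7 ± 1.07 RPKM. Among the chromodomain proteins of PRC1, Cbx7 at 49.7 ± 4.39 RPKM exceeded Cbx2 (22.3 ± 0.627) and Cbx8 (1.70 ± 0.696).

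In the BAF complex the ATPases differed widely. Smarca4 (Brg1) stood at 60.1, 59.2 and 63.3 RPKM and Smarca2 (Brm) at 0.792, 1.021 and 2.27 RPKM, ratios of 75.8, 58.0 and 27.8. Smarca2 was highest in replicate 3, where the ratio was lowest, and with the longest transcript as length the mean ratio was 22.7. For DNA methylation, the maintenance pair Uhrf1 and Dnmt1 stood at 57.8 ± 0.965 and 53.4 ± 0.800 RPKM (SD, n = 3). The cofactor Dnmt3l stood at 60.9 ± 3.94 RPKM and Dnmt3b exceeded Dnmt3a 3.31 ± 0.217 fold. Tet1 exceeded Tet2 by a factor of 2.42 ± 0.0187 (1.42 with the longest transcript as length) and Tet3 by a factor of 12.9 ± 1.85. Trim28 (KAP1), the corepressor that silences retrotransposons, stood at 101 ± 1.24 RPKM.

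All 30 DNA replication genes were detected, with a median of 39.1 RPKM. The 30 genes of cyclins, CDKs, their inhibitors and the RB family had a median of 19.8 RPKM and the 13 of the Myc and Max network 16.6 RPKM, all detected too. The 6 subunits of the MCM2-7 helicase ranged from 39.4 ± 0.911 RPKM at Mcm7 to 77.2 ± 3.57 at Mcm3 (SD, n = 3). The helicase holds 1 of each subunit, but these are RNA levels and protein was not measured. With the longest transcript as length their median rose from 64.0 to 78.5 RPKM. Each of the 6 genes was highest in replicate 1 and lowest in replicate 2. The part of gene length in this order was not tested. Ccne1 (cyclin E1), which drives the short G1 phase of these cells, stood at 65.03 ± 3.57 RPKM and Ccnb2 at 80.3 ± 6.15. Among the D-type cyclins, Ccnd1 at 33.0 ± 2.14 RPKM led Ccnd3 at 18.2 ± 1.16 and Ccnd2 at 6.97 ± 1.92. Cdk4 exceeded Cdk6 by a factor of 17.6 ± 1.23. Mycn and Myc differed by less than their spread, at 41.2 ± 2.88 and 40.5 ± 1.17 RPKM.

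All 20 aminoacyl-tRNA synthetases listed were detected with a median of 48.9 RPKM, against 29.1 RPKM for 55 translation initiation factors. The synthetases ranged from Eprs at 21.1 ± 0.686 to Gars at 73.4 ± 3.47 RPKM (SD, n = 3). The RNAs of the 8 CCT chaperonin subunits, whose proteins assemble in equal numbers, spanned 31.4 ± 2.08 RPKM at Cct7 to 84.1 ± 5.55 at Cct2. With the longest transcript as length their median rose from 47.1 to 74.8 RPKM, and protein was not measured. In one-carbon metabolism Mthfd1, Shmt2 and Gldc stood at 63.7 ± 3.03, 62.9 ± 1.57 and 48.1 ± 0.9991 RPKM. Tdh, the threonine dehydrogenase known for its high level in mouse ES cells, was low, with 9, 26 and 22 reads, or 0.564, 1.45 and 1.27 RPKM. It was 85.0% unique. Among glucose genes, the transporters Slc2a1 and Slc2a3 stood at 73.9 ± 0.578 and 57.8 ± 1.67 RPKM and the hexokinase Hk2 at 59.7 ± 1.75.

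The genes of the cytosolic ribosome, among the most abundant messages of any growing cell, did not appear so in these counts. Their median was 11.8 RPKM over 84 genes, against 23.5 RPKM for 77 genes of the mitochondrial ribosome. The cytosolic genes have many near-identical copies: 64 of 84 had fewer than 80% of their 50-base stretches unique to the gene. The 21 cytosolic genes under 50% unique had a median of 9.56 RPKM, the 43 genes from 50% to 80% 11.9 RPKM, the 16 genes from 80% to 95% 19.2 RPKM and the 4 genes above that 38.2 RPKM. Rpl8 and Rpl4, at 93.7% and 83.5% unique, stood at 80.4 ± 3.93 and 79.4 ± 3.74 RPKM (SD, n = 3), while Rps27, at 53.8%, stood at 1.16 RPKM. Levels of genes with near-identical copies are uncertain, since how the authors' counting treated reads with several matches is not given in the sources used here. The part of shared sequence in these levels was not tested.

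**Figure D4:**
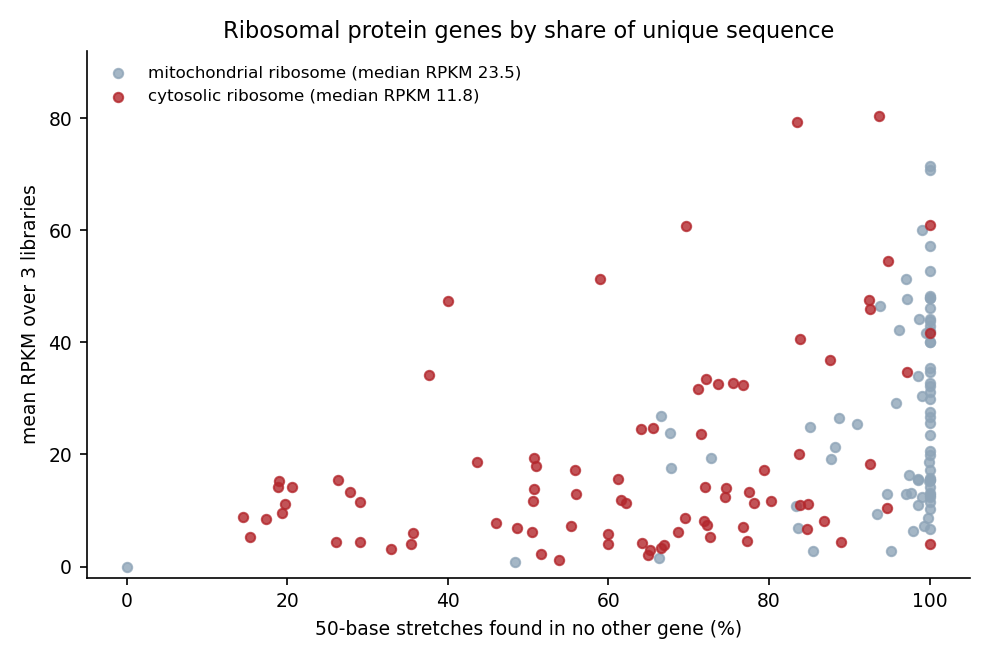
Mean RPKM against the percentage of 50-base transcript stretches found in no other gene, for cytosolic (red) and mitochondrial (grey) ribosomal protein genes. Mitochondrial genes cluster at the right edge, and cytosolic genes above 60 RPKM all lie right of 69% unique.

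Across all protein-coding genes the share detected differed with uniqueness. Of 858 protein-coding genes under 50% unique, 30.7% were detected, against 69.2% of the 16711 genes from 95% to 100%. The median detected gene stood at 6.11 RPKM under 50% unique, 9.39 RPKM from 50% to 80%, and 12.2 RPKM in both classes above that. Common reference genes differed widely. Tubb5 (99.9% unique) and Actb (87.8%) stood at 88.6 ± 5.08 and 73.0 ± 3.32 RPKM (SD, n = 3). Gapdh (41.6%), Pgk1 (32.0%) and Actg1 (54.4%) stood at 7.36 ± 1.63, 3.45 ± 0.108 and 2.22 ± 0.509 RPKM. In the mitochondrial genome mt-Co2 (0.0% unique) and mt-Co3 (0.1%) had 1 read each over all libraries, beside mt-Co1 (48.9%) at 66.4 ± 1.80 RPKM. The ratio of H3f3a to H3f3b, the genes of histone H3.3, was 0.104 ± 0.0151, with unique shares of 87.3% and 91.6%. Whether shared sequence plays a part in any of these levels was not tested.

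Hprt, the purine salvage enzyme that the E14TG2a derivative of E14 lacks, had 14, 10 and 8 reads, or 1.78, 1.13 and 0.937 RPKM, with 100.0% unique sequence. The labels name only E14. Genes of the Y chromosome were present. Ddx3y, an RNA helicase, stood at 28.6, 26.4 and 24.5 RPKM and Eif2s3y, an initiation factor subunit, at 23.6, 23.8 and 24.0 RPKM. The testis factor Sry had 0 reads. Eif2s3y exceeded its X homologue Eif2s3x (3.28 ± 0.249 RPKM, 64.6% unique), whereas Ddx3x exceeded Ddx3y by a factor of 2.61 ± 0.265 (SD, n = 3). Kdm5c stood at 46.9 ± 0.130 RPKM, while its Y homologue Kdm5d had 4, 3 and 7 reads.

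On the X chromosome 457 of 836 protein-coding genes were detected (54.7%), against 12693 of 19352 (65.6%) on autosomes. The median detected X gene stood at 9.71 RPKM and the median autosomal gene at 12.0 RPKM. The ratio of medians was 0.768, 0.816 and 0.795 in the 3 libraries. Xist, the RNA that silences the X in female cells, had 25, 92 and 78 reads, or 0.228, 0.747 and 0.656 RPKM. Its antisense partner Tsix stood at 3.37, 7.38 and 4.64 RPKM, and both were lowest in replicate 1. Of 33 imprinted genes 28 were detected. Peg10, of retroviral origin, was highest at 65.6 ± 4.68 RPKM, and the growth-limiting long RNA H19 stood at 28.4, 26.0 and 53.6 RPKM, highest in replicate 3.

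Annotated noncoding genes took a small share of the counted reads. Long noncoding types held 0.456%, 0.574% and 0.530% of the reads in the 3 libraries, and 332 of 3183 such genes were detected. These values leave out the 5053 genes without annotation, of unknown type, which took 0.593% to 0.649% of the reads. Some known long noncoding RNAs, such as Norad and Dancr, and snoRNA hosts such as Snhg1 were not found among the genes listed. Lncenc1, a long noncoding RNA of naive ES cells, reached the level of the core factors at 71.0, 67.0 and 67.0 RPKM. Platr14 and Platr3, from a set of transcripts tied to pluripotency, stood at 37.4 ± 4.57 and 33.6 ± 5.78 RPKM (SD, n = 3). Malat1, a nuclear RNA abundant in most tissues, stood at 19.7, 32.4 and 24.2 RPKM. Replicate 1 was lowest for all 9 detected snoRNA host genes, and replicate 2 highest for 8 of them.

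Of 1110 microRNA genes listed, 126 had a read and 12 were detected. The miR-290 cluster, which encodes the dominant microRNAs of mouse ES cells, supplied 7 hairpins with reads, on the plus strand of chromosome 7 from Mir290a at position 3218626 to Mir295 ending at 3220841 (GRCm38). Mir291b had 32, 66 and 45 reads, Mir295 29, 59 and 48, and Mir294 17, 28 and 23. Mir293 had 15, 27 and 27 reads, Mir291a 11, 30 and 17, Mir292 14, 29 and 12, and Mir290a 6, 20 and 11. Every one was lowest in replicate 1 except Mir292, which was lowest in replicate 3. Libraries of this kind capture pieces of the primary transcript and not the mature microRNA, so these counts speak of transcription through the cluster. The related Mir302a, Mir302b and Mir302c of chromosome 3, typical of the primed state, had 1, 2 and 1 reads over the 3 libraries, and Mir302d had 0.

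The mature 3' arms of 6 of the 7 hairpins are shown because their seeds, bases 2 to 8 in capitals, define the targets of the family. They are from RefSeq on GRCm38.p6.

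mmu-miR-291a-3p: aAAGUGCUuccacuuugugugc

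mmu-miR-294-3p: aAAGUGCUucccuuuugugugu

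mmu-miR-295-3p: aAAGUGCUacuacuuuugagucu

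mmu-miR-290a-3p: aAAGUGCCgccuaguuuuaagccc

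mmu-miR-291b-3p: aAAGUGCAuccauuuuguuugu

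mmu-miR-293-3p: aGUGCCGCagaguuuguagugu

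The first 3 share the seed AAGUGCU. The arms of Mir290a and Mir291b carry the seeds AAGUGCC and AAGUGCA, and that of Mir293 carries GUGCCGC. The machinery to process them was present: all 14 genes of the microRNA pathway were detected. Drosha, the nuclear nuclease, stood at 48.9 ± 1.63 RPKM and Dicer1, the cytoplasmic one, at 14.9 ± 0.327 RPKM (SD, n = 3). Among the Argonautes, Ago1 and Ago2 at 25.2 ± 0.484 and 24.9 ± 1.54 RPKM stood above Ago3 at 2.90 ± 0.806 and Ago4 at 0.623 ± 0.0853.

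Of 11527 genes with a mean of 50 reads or more, 448 (3.89%) differed 2-fold or more between the highest and the lowest library. The biological coefficient of variation estimated with edgeR was 0.148 over the 3 libraries and 0.109 without replicate 3. In 235 of the 448 genes replicate 3 was the outlying library and higher, and in 62 it was outlying and lower. Replicate 1 was outlying and lower in 84 and higher in 3, and replicate 2 was outlying and higher in 60 and lower in 4. The widest was Tns4, a focal adhesion protein, with 7, 21 and 304 reads. Next was Stra6, the retinol uptake receptor, with 12, 23 and 384 reads, and Hkdc1, a hexokinase relative, had 27, 48 and 434. In each of these replicate 3 alone was high.

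Among the gene lists, primitive endoderm markers had the highest share of detected members at least 2-fold higher in replicate 3. Replicate 3 was highest for 18 of 19 detected members, against 31.1% of all detected protein-coding genes, and exceeded the mean of the other libraries 2-fold or more in 13 of 19, against 2.67%. The list summed to 2507, 3085 and 5248 CPM in replicates 1 to 3. Gata4, a master factor of the lineage, stood at 39.5, 29.9 and 144 CPM and Gata6 at 57.3, 61.5 and 139 CPM. Sox17, an endodermal HMG-box factor, stood at 19.3, 21.3 and 74.9 CPM. Their values in replicates 1 and 2 were close together and clear of replicate 3.

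Products of the lineage were likewise highest in replicate 3. Dab2, an endocytic adaptor, stood at 71.8, 65.3 and 288 CPM and its partner in uptake Cubn (cubilin) at 43.9, 109.7 and 438 CPM. Pdgfra, the receptor that marks the lineage, stood at 68.6, 92.3 and 232 CPM. The basement membrane genes Col4a1 (334, 398 and 660.1 CPM) and Lama1 (412, 605 and 772 CPM) were also highest in replicate 3, but were abundant in every library. Apoe alone of the detected members was not highest in replicate 3, at 146, 148 and 141 CPM. Afp and Ttr, products of more mature visceral endoderm, were not detected, with 2, 0 and 3 reads and 2, 2 and 14 reads. The median over all 21 members lay at 8.81 and 9.21 RPKM in replicates 1 and 2, against 37.0 RPKM in replicate 3, and Gata4, Gata6 and Sox17 were detected in replicates 1 and 2 as well. Their part in other differences of replicate 3 was not tested.

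**Figure D5:**
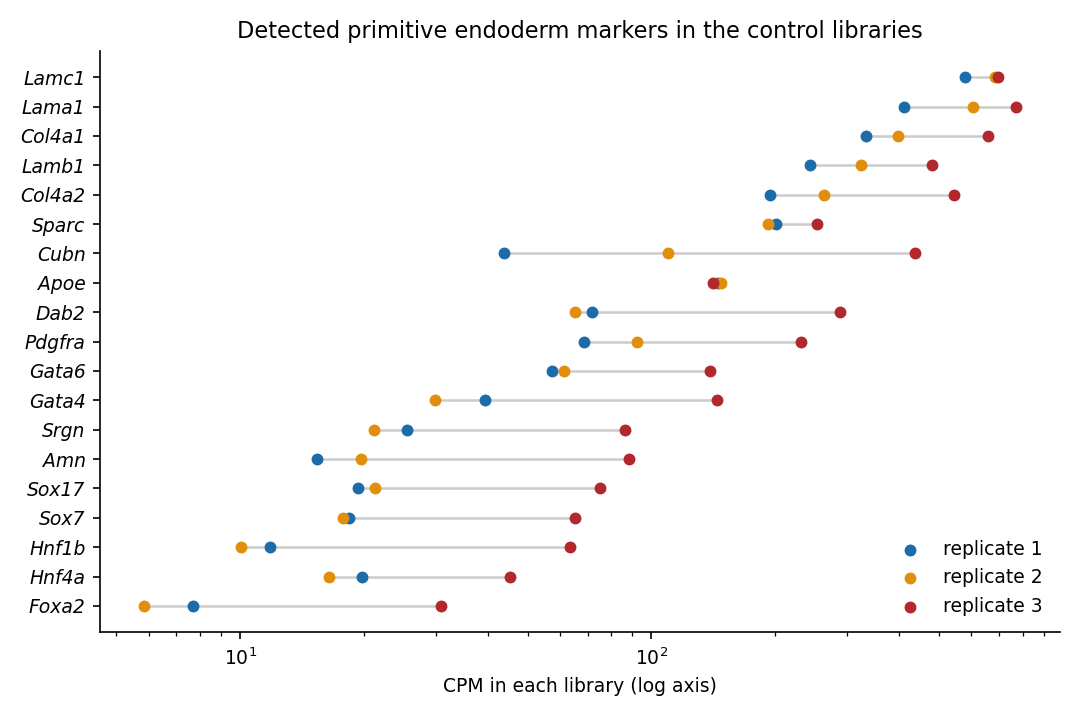
CPM (log axis) of the 19 detected primitive endoderm markers in replicates 1 (blue), 2 (orange) and 3 (red), grey lines joining the lowest and highest. Replicate 3 is rightmost for 18 of 19, from Foxa2 at 30.8 CPM to Lama1 at 772 CPM, and Apoe is the exception.

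Pluripotency factors did not separate replicate 3 in the same way. No detected core or naive member was 2-fold above or below the mean of the others in replicate 3, and the median ratio was 0.975 for the core and 0.976 for the naive list, against 0.996 for all detected protein-coding genes. The epithelial keratins Krt8 (21.95, 18.8 and 52.1 CPM) and Krt18 (24.1, 22.3 and 52.5 CPM) were highest in replicate 3. In the trophectoderm list replicate 3 was highest for 11 of 14 detected members and 2-fold higher in 4, with a median ratio of 1.29. In the antigen presentation list it was highest for 6 of 8 and 2-fold higher in 3, with a median ratio of 1.49. B2m, the light chain of MHC class I, stood at 28.96, 29.8 and 45.3 RPKM and Tap1, a peptide transporter, at 0.898, 1.76 and 5.73 RPKM. Of the 12 detected genes tied to a rare cell state that resembles the cleavage embryo, 10 were highest in replicate 3 and 1 was 2-fold higher. The median ratio was 1.41. Of the 13 genes found for this state, 8 were under 80% unique. Zscan4d, its usual reporter, stood at 25.2, 30.6 and 46.9 CPM and was 50.4% unique. Egr1, an immediate early gene of ERK signalling, went the other way at 138, 49.5 and 35.2 CPM. Fos did so too, at 24.7, 7.72 and 5.74 CPM, and both were highest in replicate 1. Among 16 detected immediate early and heat shock genes, 2 were 2-fold lower in replicate 3 and 2 were 2-fold higher. The median ratio of that list was 1.04. With 1 group of 3 libraries nothing here was tested, and whether these differences arose in the cells or in their handling cannot be told apart.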

How the data were processed

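Counts per Ensembl gene were deposited by the authors as whole numbers, 1 table per library, with no normalization. Per the submitters' processing notes the tools were STAR 2.4.0j, Picard and featureCounts of Subread. Per the labels' protocols the libraries were stranded TruSeq libraries of total RNA read as single ends of 50 bases. The alignments counted were stripped of duplicates, per the file headers, and counting was reverse-stranded, per the names of the deposited tables. The genome build, the annotation and the treatment of reads with several matches are not given in the sources used here. Symbols, types, positions and exon lengths came from GENCODE M21 (GRCm38), matched by gene ID for 32937 of 37990 genes. The other 5053 genes took 0.593% to 0.649% of the reads and were left out of the gene classes.

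Libraries were scaled by TMM with edgeR 4.0.16 in R 4.3.3, and levels were computed in Python 3.11.15 with pandas 2.3.3. RPKM is scaled CPM per kilobase of merged exons. The correction for removed duplicates took reads as the occupied part of all start positions of a gene's exons, and raised totals by 1.10 to 1.11 times. The unique share of a gene is the percentage of distinct 50-base stretches of its transcripts found in no other gene's transcripts; copies outside annotated transcripts are not seen. Both computations and the scaling were checked on simulated data. The check of the correction drew start positions evenly, as the correction itself assumes, so it does not cover uneven coverage of a gene.

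There is 1 group, so levels are means with SD over 3 libraries and no test was run. Members, lists and families were chosen with earlier results of these data known. The named genes were the markers, all members of lists of up to 12 genes, the 6 highest and 3 lowest members of longer lists, fixed paralogue pairs, the 20 coding genes and 10 noncoding genes with the highest RPKM, the 10 genes with most reads and the 15 that varied most. Further members of lists named for their known role were chosen after their values were seen. List entries not found in the table were not analysed here. A few members that the counts include are not reported here by name.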

Additional observations from a re-analysis of the deposited data

How the results depend on the processing

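No paired analysis was possible because only 1 group was described. The count of detected protein-coding genes, the share of reads in protein-coding genes and the library-scaled marker levels stayed within 1.5 times or 1 SD under other thresholds and under total count or DESeq2 1.42.0 scaling. The length and the ceiling on reads matter more. With the longest transcript as length the median detected gene stood at 16.3 RPKM and the X to autosome ratio at 0.721. At that length Pou5f1 stood at 100.7 and Esrrb at 93.2 RPKM, closer to Sox2, which stayed at 106. That length also turned the ratio of Arid4a to Arid4b to 0.979. Correcting for occupied positions put the 100 genes with most reads at 5.32%, Sox2 at 163, Esrrb at 78.1 and Pou5f1 at 70.1 RPKM, and, in an alternative chosen after seeing the data, the median at 11.2 RPKM. In TPM, another unit, the median was 52.7, Pou5f1 269, Sox2 469.5 and Esrrb 292.5. Thresholds of 0.5 and 2 CPM gave medians of 11.1 and 12.9 RPKM and X to autosome ratios of 0.759 and 0.821, and with no filter that ratio was 0.538. Leaving out each replicate gave medians of 11.6 to 11.8 RPKM, all below the 11.95 of the 3 together. Genes that varied 2-fold numbered 864 with a minimum of 20 reads, and 119 to 316 when 1 replicate was left out, against 448; the 119 were without replicate 3. The causes of these shifts other than the change of unit or length were not tested. Of 57 list medians, 41 moved by more than 1 SD with the longest transcript, 18 with the correction and none with other scalings. At this depth differences among genes near 3 reads were not detectable.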

Other observations

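Neighbouring genes that start within 1000 bases of each other on opposite strands, facing away, formed 714 pairs of protein-coding genes. Both members were detected in 596 pairs (83.5%), 1 in 97 and neither in 21. Of the 1423 genes in such pairs 90.2% were detected, against 63.2% of the 18806 other protein-coding genes. Within pairs with both detected, the levels of the partners were nearly unrelated in rank, with Spearman's rho of 0.0875 over 596 pairs. The pairs share libraries, and their base composition, which may be shared too, was not compared.

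Germline genes were widely present at low to middle levels. Of 31 such genes 29 were detected, with a median of 8.84 RPKM. Stag3, a meiotic cohesin subunit, stood at 44.0 ± 6.83 RPKM (SD, n = 3), Mael, a piRNA pathway factor, at 31.3 ± 5.02 and Sycp3, of the synaptonemal complex, at 21.7 ± 3.39. Ddx4 (Vasa) and Dazl, germ cell RNA regulators, stood at 14.4 ± 1.022 and 10.6 ± 1.11 RPKM. Spo11, which opens meiotic recombination, stood at 0.0124 RPKM.

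Genes that sense nucleic acids and answer to interferon were uneven. The adaptor Mavs stood at 26.2 ± 1.74 RPKM and the RNA sensor Ddx58 (RIG-I) at 14.2 ± 0.707 (SD, n = 3). The related sensor Ifih1 (MDA5) stood at 0.0373 RPKM and the effector Isg15 at 0.0722 RPKM. Ifnb1 had 0 reads.

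In the integrated stress response all 16 genes were detected, with a median of 34.7 RPKM. The amino acid synthetase Asns stood at 71.9 ± 4.07 RPKM, the factor Atf4 at 60.2 ± 4.21 and Trib3, its target, at 43.3 ± 1.64 (SD, n = 3). The p53 group had 14 of 15 detected, with Trp53 at 42.5 ± 0.482 RPKM and its target Bax at 68.1 ± 1.45.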
